A study of Mus musculus with 6 samples.

Results

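The genes described here are 10 genes of glucose uptake and use in muscle, out of 22036 genes listed in the table. They were chosen by symbol: the glucose transporters Slc2a1 and Slc2a4, the Rab GTPase-activating proteins Tbc1d1 and Tbc1d4, the hexokinases Hk1 and Hk2, the bifunctional enzymes Pfkfb1 and Pfkfb3, the muscle fructose bisphosphatase Fbp2 and the glycerol phosphate dehydrogenase Gpd1. All 10 were found, and 8 passed the filter on low counts. Slc2a1 and Tbc1d4 did not.

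Their levels were compared between 3 libraries of Prr14-KO mice (KO) and 3 of Prr14-WT mice (WT). Each library held total RNA of quadriceps femoris, the large thigh muscle that extends the knee, read as amplified nanopore cDNA. PRR14 is known for tethering heterochromatin to the nuclear lamina, and the series title links it to mechanotransduction and myofibre identity. The sources used here give no age, sex or strain of the mice and do not say which part of Prr14 was deleted. Nothing in the labels says whether 1 library is 1 animal, and the p-values cover the spread among libraries, which may be technical.

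In resting muscle most GLUT4, the product of Slc2a4, sits in vesicles inside the fibre. Insulin and contraction send it to the surface when the kinases AKT and AMPK phosphorylate the Rab GTPase-activating proteins that hold the vesicles back. Hexokinase then traps the sugar as glucose phosphate. The PFKFB enzymes make and remove a fructose bisphosphate that switches phosphofructokinase on, so they set the pace of glycolysis, while FBP2 works against phosphofructokinase. GPD1 draws carbon and reducing power out of the middle of the pathway.

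Libraries held 1436099 to 1712975 read counts, and levels are CPM after TMM scaling, with SDs over 3 libraries. One read count was worth 0.573 to 0.730 CPM. The targeted gene Prr14 (chromosome 7) had 4, 10 and 3 counts in KO libraries and 9, 11 and 12 in WT libraries. KO lay below WT on the CPM scale without overlap, but the gene did not pass (edgeR adjusted p = 0.196, log2 fold change -1.10). With 1 library left out the value lay between -1.80 (without KO replicate 2) and -0.77 (without KO replicate 3), and the gene passed in none of these fits. All 8 muscle fibre markers were detected, with a summed level of 102716 to 114901 CPM in KO and 131134 to 165610 CPM in WT, without overlap. Of these, 3 passed as lower in KO (Acta1, Ttn and Neb) and 0 as higher. Of 6680 genes tested, 6.26% passed at an adjusted p under 0.05 (edgeR quasi-likelihood test, Benjamini-Hochberg over all tested genes), 2.98% as higher and 3.28% as lower in KO. Scaling by library totals gave 653 higher and 148 lower genes, where TMM gave 199 and 219. That scaling moved the median log2 fold change of all genes to 0.251, against 0.017 with TMM.

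Of the 8 tested genes, Pfkfb3 rose and Tbc1d1 fell, and the other 6 did not pass. The 2 of 8 that passed stand beside the 6.26% of all tested genes, and the median log2 fold change of the 8 was 0.14. After TMM scaling, KO and WT libraries did not overlap for 3 of the 8 genes (Pfkfb3, Tbc1d1 and Pfkfb1), beside 25.8% of all tested genes. Both calls held in each of the 16 alternative settings run.

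**Figure D1:**
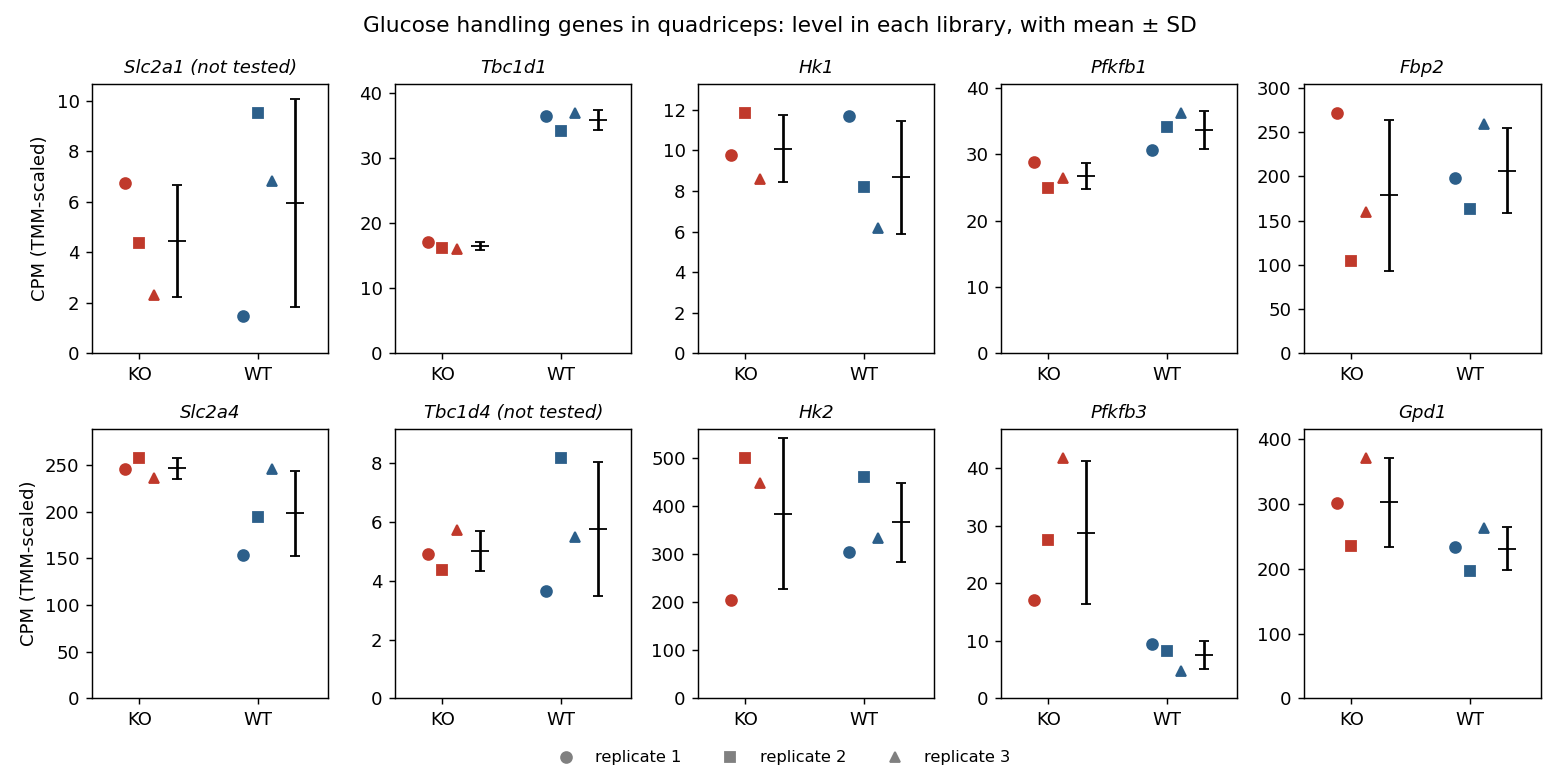
Level of each of the 10 genes (y axis, CPM after TMM scaling, from 0) in 3 KO and 3 WT libraries, with the mean ± SD beside the points. Pfkfb3 sits between 17.1 and 41.8 CPM in KO, above all WT libraries, and Tbc1d1 between 16.0 and 17.1 CPM in KO, below all WT libraries; Slc2a1 and Tbc1d4 were too low to be tested.

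Among the glucose transporters, Slc2a4 encodes GLUT4, the insulin- and contraction-responsive carrier of muscle and fat (ENSMUSG00000018566, GRCm38 chromosome 11, 69942539 to 69948188, minus strand). It had 245, 258 and 236 CPM in KO replicates 1 to 3, and 154, 195 and 246 CPM in WT replicates 1 to 3. The KO libraries lay close together, and WT replicate 3 reached their level, so the genotypes overlapped. The mean was 246 ± 11.0 CPM in KO and 198 ± 46.0 CPM in WT (n = 3 each). The log2 fold change was 0.31 (SE 0.15, 95% interval -0.01 to 0.64, edgeR adjusted p = 0.274). Slc2a4 passed as higher in KO with library totals (log2 fold change 0.56, edgeR adjusted p = 0.0194) and in none of the 15 other settings.

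Slc2a1 encodes GLUT1, the basal carrier that also serves endothelium (ENSMUSG00000028645, chromosome 4, 119108711 to 119137983, plus strand). It had 11, 7 and 4 counts in KO libraries and 2, 14 and 10 counts in WT libraries. These counts overlapped widely. Summed over libraries and scaled, the KO level was 0.730 of the WT level, with an exact binomial 95% interval of 0.394 to 1.34 that covers counting error only. A difference was not detectable at this depth. The 9 endothelial markers summed to 309 to 362 CPM in KO and 306 to 352 CPM in WT, with 0 of 9 passing. The 5 red blood cell markers summed to 1401 to 2016 CPM in KO and 1623 to 4002 CPM in WT, again with 0 passing. All 5 leaned lower in KO, with a median log2 fold change of -0.66, against -0.025 for the endothelial markers. In bulk muscle fewer cells of a type and less RNA per cell cannot be told apart.

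TBC1D1 and TBC1D4 (also called AS160) switch off the Rab proteins that carry GLUT4 vesicles outward. Tbc1d1 (ENSMUSG00000029174, chromosome 5, 64156305 to 64351486, plus strand) had 28, 26 and 28 counts in KO libraries and 50, 50 and 54 counts in WT libraries. On the CPM scale these were 17.1, 16.2 and 16.0 in KO and 36.5, 34.1 and 37.0 in WT, so every KO library lay at about the same level, below every WT library. The mean was 16.5 ± 0.582 CPM in KO and 35.8 ± 1.55 CPM in WT (n = 3 each), a 2.17-fold lower level in KO. The log2 fold change was -1.12 (SE 0.20, 95% interval -1.55 to -0.68, edgeR adjusted p = 0.00359). It ranged from -1.18 to -0.88 in the alternatives, with an adjusted p of at most 0.0179.

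Tbc1d4 (ENSMUSG00000033083, chromosome 14, 101442360 to 101609191, minus strand) had 8, 7 and 10 counts in KO libraries and 5, 12 and 8 counts in WT libraries. The scaled ratio of KO to WT was 0.863 (exact binomial 95% interval 0.476 to 1.57, counting error only). With no filter on low counts Tbc1d4 still did not pass (log2 fold change -0.22, edgeR adjusted p = 0.883), nor did Slc2a1 (-0.45, edgeR adjusted p = 0.730). Tbc1d1 made up 77.8%, 78.8% and 73.7% of the reads of this pair in KO libraries, and 90.9%, 80.6% and 87.1% in WT libraries. The mean share was 76.8 ± 2.70% in KO and 86.2 ± 5.19% in WT, lower in all 3 KO libraries (two-sided exact permutation test, p = 0.1, which 3 against 3 cannot go below). The highest KO share, 78.8%, had an exact binomial 95% interval of 61.1 to 91.0%. The lowest WT share, 80.6%, had one of 68.6 to 89.6%, so these intervals overlapped. A share of reads needs no scaling between libraries, but it is no comparison of levels between the genes.

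Both genes that passed are shown with RefSeq windows around a transcription start (GRCm38.p6, 250 bases before to 50 after it, read along the gene), since these windows lie at annotated starts of the genes that changed. RefSeq windows were found for 8 of the 10 genes, 14 windows in all, and Slc2a4 and Gpd1 have none in the table. The motifs searched on both strands were CANNTG, the E-box core of myogenic factors such as myogenin, and ACGTG, the core bound by HIF and other factors. CACGTG, which is both at once, and the MEF2 motif were counted too. CANNTG was in 72.3%, ACGTG in 19.6%, CACGTG in 7.15% and the MEF2 motif in 3.19% of all 32851 windows. The window of Tbc1d1 at chr5:64160010-64160309, plus strand, held CANNTG at 2 places and none of the others, and a second window at chr5:64230107-64230406 held no match. Capitals mark CANNTG and ACGTG.

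Tbc1d1: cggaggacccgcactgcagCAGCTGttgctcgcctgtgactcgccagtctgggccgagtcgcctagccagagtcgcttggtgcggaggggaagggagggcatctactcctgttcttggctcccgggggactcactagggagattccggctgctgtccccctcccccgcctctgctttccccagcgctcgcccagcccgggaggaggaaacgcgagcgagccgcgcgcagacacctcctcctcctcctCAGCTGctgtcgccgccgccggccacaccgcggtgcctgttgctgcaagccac

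The hexokinases differ in tissue: HK2 is the main isoform of insulin-responsive muscle and HK1 is found nearly everywhere. Hk2 (ENSMUSG00000000628, chromosome 6, 82725025 to 82774454, minus strand) had 204, 499.7 and 447 CPM in KO replicates 1 to 3, and 304, 459 and 333 CPM in WT replicates 1 to 3. KO replicate 1 was the lowest of the 6 libraries and KO replicate 2 the highest, so the KO range enclosed the WT range. The mean was 384 ± 157 CPM in KO and 365 ± 82.1 CPM in WT (log2 fold change 0.07, SE 0.38, 95% interval -0.90 to 1.04, edgeR adjusted p = 0.951). The sign turned in 4 alternatives, among them leaving out KO replicate 2 (-0.17).

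Hk1 (ENSMUSG00000037012, chromosome 10, 62268855 to 62379908, minus strand) had 16, 19 and 15 counts in KO libraries and 16, 12 and 9 counts in WT libraries, with overlap. Its level was 10.1 ± 1.66 CPM in KO and 8.67 ± 2.79 CPM in WT (log2 fold change 0.22, SE 0.34, edgeR adjusted p = 0.782). Hk2 made up 97.1 ± 1.44% of the reads of both hexokinases in KO and 97.6 ± 1.10% in WT (two-sided exact permutation test, p = 0.5). Of their relatives, the leukocyte hexokinase Hk3 had 3 counts over all KO libraries and 4 over all WT libraries.

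PFKFB3 is the isoform whose kinase activity far outweighs its phosphatase activity, and it is known as an inducible driver of glycolysis. Pfkfb3 (ENSMUSG00000026773, chromosome 2, 11471433 to 11554077, minus strand) had 28, 44 and 73 counts in KO libraries and 13, 12 and 7 counts in WT libraries. These stood at 17.1, 27.5 and 41.8 CPM in KO and 9.48, 8.18 and 4.79 CPM in WT. Every KO library was above every WT library, and in CPM the KO libraries differed among themselves by more than the WT libraries did. The mean was 28.8 ± 12.4 CPM in KO and 7.49 ± 2.42 CPM in WT (n = 3 each). Pfkfb3 was 3.85-fold higher in KO than in WT (edgeR adjusted p = 0.00620), a log2 fold change of 1.95 with SE 0.37 and 95% interval 1.15 to 2.74. In the alternatives the log2 fold change ranged from 1.57 to 2.21, with an adjusted p of at most 0.0336.

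RefSeq holds windows for 2 starts of Pfkfb3. That at chr2:11553880-11554179, minus strand, had CANNTG at 2 places and ACGTG at 1. That at chr2:11502041-11502340, minus strand, had CANNTG at 2 places, 1 of them the palindrome CACGTG, which counts as ACGTG on both strands at once. Neither held the MEF2 motif. The gene counts do not tell which start was used, and a match is no evidence of binding. Capitals again mark CANNTG and ACGTG.

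Pfkfb3 upstream start: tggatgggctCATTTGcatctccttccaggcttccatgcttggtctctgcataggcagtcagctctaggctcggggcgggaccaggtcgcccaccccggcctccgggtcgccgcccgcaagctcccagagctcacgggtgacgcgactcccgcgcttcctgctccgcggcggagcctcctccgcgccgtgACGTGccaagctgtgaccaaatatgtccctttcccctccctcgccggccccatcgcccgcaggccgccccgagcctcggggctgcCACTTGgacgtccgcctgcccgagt

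Pfkfb3 downstream start: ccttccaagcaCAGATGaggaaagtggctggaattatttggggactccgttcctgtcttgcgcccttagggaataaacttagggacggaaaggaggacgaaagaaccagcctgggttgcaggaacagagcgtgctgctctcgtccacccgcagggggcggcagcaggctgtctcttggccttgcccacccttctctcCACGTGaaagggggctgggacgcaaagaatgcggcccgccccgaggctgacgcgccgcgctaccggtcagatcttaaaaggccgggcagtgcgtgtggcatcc

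PFKFB1 is the isoform of liver and skeletal muscle. Pfkfb1 (ENSMUSG00000025271, chromosome X, 150588229 to 150643878, plus strand) had 28.8, 25.0 and 26.4 CPM in KO libraries and 30.6, 34.1 and 36.3 CPM in WT libraries. After TMM scaling all 3 KO libraries lay below all WT libraries, by a small margin. The mean was 26.7 ± 1.91 CPM in KO and 33.7 ± 2.84 CPM in WT, and the gene did not pass (log2 fold change -0.33, SE 0.20, 95% interval -0.76 to 0.09, edgeR adjusted p = 0.387). With library totals Pfkfb1 had a log2 fold change of -0.097 (edgeR adjusted p = 0.793). It overlaps Apex2 on the opposite strand, which had 26 counts over all libraries, and the sources used here do not say whether counting used strand.

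Within the pair, the Pfkfb3 share was higher in each KO library than in any WT library. This had to follow, since after TMM scaling Pfkfb3 was higher and Pfkfb1 lower in every KO library than in any WT library. The share and its p-value are therefore no separate result. Pfkfb3 held 37.3%, 52.4% and 61.3% of the reads of Pfkfb1 and Pfkfb3 in KO libraries, against 23.6%, 19.4% and 11.7% in WT libraries. The mean share was 50.4 ± 12.1% in KO and 18.2 ± 6.07% in WT (two-sided exact permutation test, p = 0.1, again the lower limit). The lowest KO share, 37.3%, has an exact binomial 95% interval of 26.4 to 49.3%, and the highest WT share, 23.6%, one of 13.2 to 37.0%. The other isoforms gave no called change: Pfkfb4 had 36.3 ± 5.06 CPM in KO and 49.0 ± 15.8 CPM in WT (edgeR adjusted p = 0.316), and Pfkfb2 was too low to be tested. Pfkm, the muscle phosphofructokinase on which their product acts, had 1468 ± 247 CPM in KO and 1941 ± 215 CPM in WT. After TMM scaling, every KO library lay below every WT library for Pfkm, but the gene did not pass (edgeR adjusted p = 0.0708, log2 fold change -0.40). In 3 of the 16 alternatives Pfkm was called lower. These were the fits without KO replicate 3 (-0.55, edgeR adjusted p = 0.0220), with no filter (0.00660) and with the slow-fibre score added (0.0389). The other 13 gave no call, among them library totals, where the value shrank to -0.17 (edgeR adjusted p = 0.326), and DESeq2 (-0.42, DESeq2 adjusted p = 0.179).

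**Figure D2:**
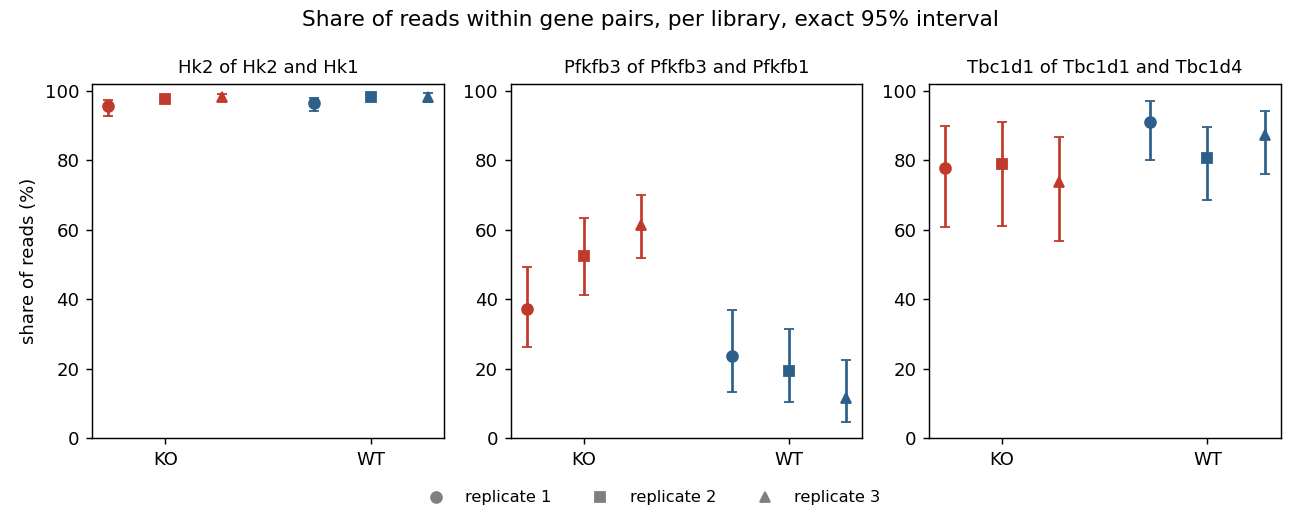
Share of reads (y axis, percent) taken by the first gene of 3 gene pairs in each library, with exact binomial 95% intervals that cover counting error only. The Pfkfb3 share is 37.3 to 61.3% in KO and 11.7 to 23.6% in WT, while the Hk2 share is over 95% in every library.

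Fbp2, the muscle fructose bisphosphatase (ENSMUSG00000021456, chromosome 13, 62836877 to 62858422, minus strand), had 272, 105 and 159 CPM in KO replicates 1 to 3, and 198, 163 and 259 CPM in WT replicates 1 to 3. KO replicate 1 was the highest and KO replicate 2 the lowest of the 6 libraries. The mean was 179 ± 85.4 CPM in KO and 207 ± 48.5 CPM in WT (log2 fold change -0.21, SE 0.39, 95% interval -1.18 to 0.76, edgeR adjusted p = 0.833). The sign turned with library totals (0.040) and without KO replicate 2 (0.060).

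Hk2 and Fbp2 deviated from their own means in opposite directions in each of the 6 libraries. This was seen after the values were known and is a description only. There were 0.751, 4.76 and 2.81 Hk2 reads per Fbp2 read in KO replicates 1 to 3, and 1.53, 2.82 and 1.29 in WT replicates 1 to 3. The KO libraries differed among themselves by more than the genotype means did (2.77 ± 2.01 in KO and 1.88 ± 0.820 in WT). KO replicate 2, with the highest ratio, also had the highest slow-fibre score (mean log2 CPM of 10 slow-fibre genes), at 6.59, against 4.24 and 2.84 in KO replicates 1 and 3 and 5.27, 4.93 and 2.43 in WT replicates 1 to 3. KO replicate 1, with the lowest ratio, was in the middle of that score. The part of fibre type in the ratio was not tested.

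Gpd1, the cytosolic glycerol phosphate dehydrogenase (ENSMUSG00000023019, chromosome 15, 99717515 to 99725005, plus strand), had 301, 235 and 372 CPM in KO libraries and 233, 197 and 263 CPM in WT libraries. KO replicate 2 lay within the WT range. The mean was 303 ± 68.2 CPM in KO and 231 ± 33.0 CPM in WT (log2 fold change 0.39, SE 0.16, 95% interval 0.04 to 0.75, edgeR adjusted p = 0.204). Gpd1 passed as higher with library totals alone (0.63, edgeR adjusted p = 0.0175). It is abundant in fat cells too. The 8 adipocyte markers summed to 2129 to 2651 CPM in KO and 4060 to 6817 CPM in WT, without overlap, and 1 of the 7 tested, Car3, fell (log2 fold change -1.57, edgeR adjusted p = 0.0204). Car3, a carbonic anhydrase gene that muscle also expresses, had 1610 ± 229 CPM in KO and 4765 ± 1622 CPM in WT. Without it, a choice made after the values were seen, the list summed to 572 to 823 CPM in KO and 242 to 1022 CPM in WT, and 0 of its 6 tested genes passed. The part of fat cells in the Gpd1 level was not tested.

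The partner of GPD1 in the glycerol phosphate shuttle, which passes reducing power from cytosolic glycolysis to the respiratory chain, is the mitochondrial enzyme encoded by Gpd2. Gpd2 fell: it had 47.1, 33.7 and 42.4 CPM in KO libraries and 123, 140 and 176 CPM in WT libraries, with no overlap. It was 3.55-fold lower in KO than in WT (edgeR adjusted p = 1.75e-05, log2 fold change -1.83, SE 0.18). There were 6.39, 6.98 and 8.77 Gpd1 reads per Gpd2 read in KO libraries, and 1.90, 1.41 and 1.49 in WT libraries. This ratio was chosen after the values were seen. It shows unequal change of the 2 genes and needs no scaling between libraries. The relative Gpd1l had 5, 5 and 7 counts in KO libraries and 6, 7 and 5 in WT libraries, too low to be tested.

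**Figure D3:**
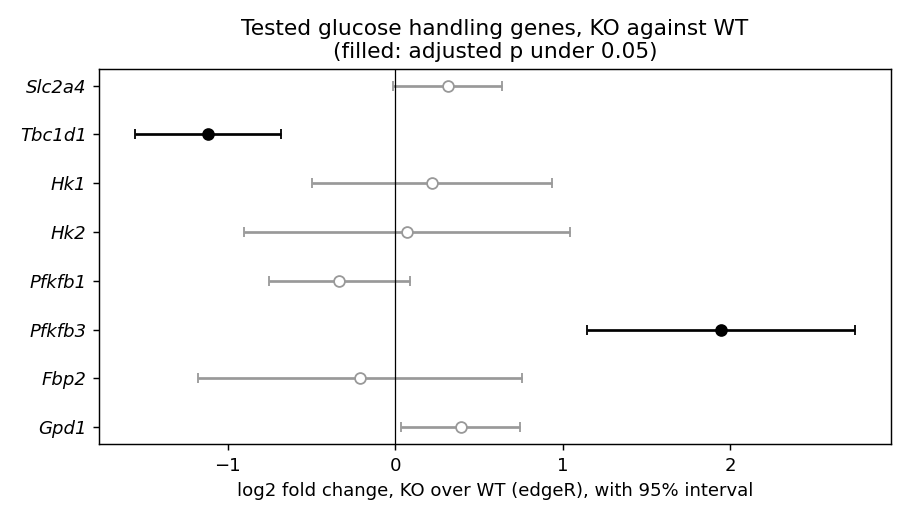
Log2 fold change of KO over WT (x axis) with its 95% interval for the 8 tested genes, filled where the adjusted p was under 0.05. Only the intervals of Tbc1d1 (-1.55 to -0.68), Pfkfb3 (1.15 to 2.74) and Gpd1 (0.04 to 0.75) lie on one side of 0, and Gpd1 did not pass after adjustment over all genes.

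The genes differed in their observed spread within a genotype, which includes counting error. Tbc1d1, with 26 to 28 counts in KO libraries and 50 to 54 in WT libraries, rests on few counts. So does Pfkfb3, with 7 to 13 counts in WT libraries. Their coefficients of variation do not measure how steady the genes are. Tbc1d1 and Pfkfb1 had coefficients of variation of 3.53% and 7.16% in KO and 4.32% and 8.44% in WT. Hk2, Fbp2 and Pfkfb3 had 41.0%, 47.7% and 43.0% in KO and 22.5%, 23.4% and 32.4% in WT. For Slc2a4 it was 4.47% in KO and 23.2% in WT. The libraries that stood at the ends were not the same from gene to gene: KO replicate 3 was highest for Pfkfb3 and Gpd1, KO replicate 1 for Fbp2, and KO replicate 2 for Hk2 and Slc2a4.

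**Figure D4:**
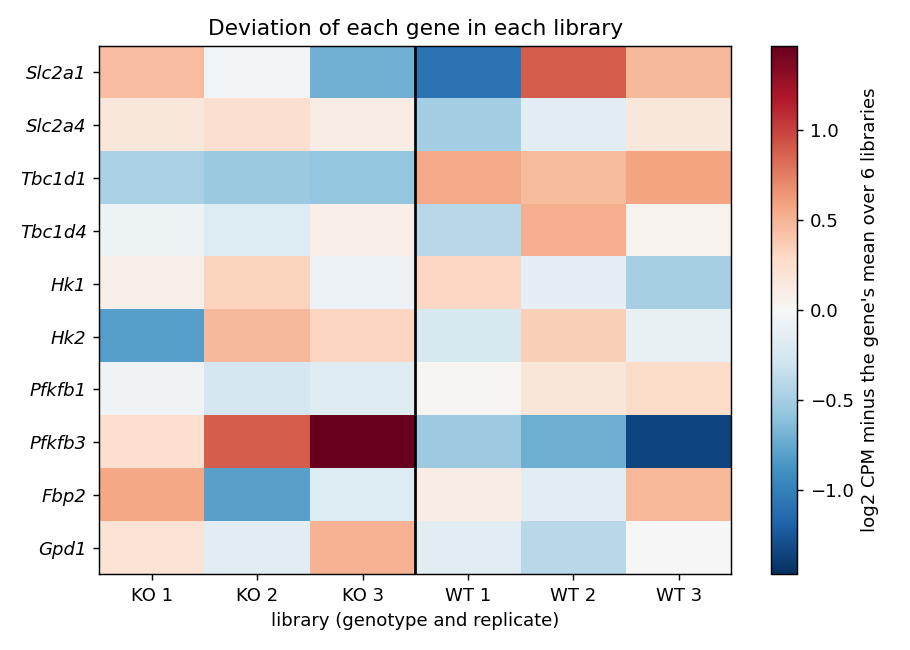
Log2 CPM of each gene minus its mean over the 6 libraries (colour scale), with KO libraries left of the line and WT libraries right of it. Tbc1d1 is below its mean in all 3 KO libraries and Pfkfb3 above it, while Hk2 and Fbp2 have opposite colours in every library.

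The genes with the nearest profiles were sought among 3716 tested genes of at least 20 CPM, by the root mean square difference of centred log2 CPM over the 6 libraries. A gene chosen this way largely shares the direction of the gene it was matched to. Its direction and p-value are therefore no separate result. Nearest to Tbc1d1 were Ugp2 (0.08), Gyg (0.10) and Neb (0.11), which encode the enzyme that makes UDP-glucose, glycogenin and the thin filament protein nebulin. All 3 fell, with log2 fold changes of -1.06, -1.04 and -0.91 (edgeR adjusted p = 2.69e-05, 0.000612 and 2.66e-05). Nearest to Pfkfb3, at larger distances, were Mical2 (0.35), which encodes an actin-oxidising enzyme, Gstp2 (0.44), a glutathione transferase gene with close paralogs that could share its reads, and Pla2g16 (0.45), a phospholipase gene. All 3 rose, by 1.41, 1.41 and 1.10 on the log2 scale (edgeR adjusted p = 0.00304, 1.51e-06 and 0.00209). Nearest to Slc2a4 were Adam9 (0.08), Ipo13 (0.10) and Blmh (0.10), none of which passed.

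A list of 113 other genes of glucose uptake and use, drawn up with earlier results of these data known, had 77 tested genes. Of these 6 rose, 9 fell and 62 did not pass, so 19.5% passed beside 6.26% of all tested genes. Their median log2 fold change was -0.029, against 0.017 for all genes. Between 10 and 20 passed in the alternatives, and library totals gave 10 higher and 8 lower. The count of higher genes was 2 with DESeq2, without KO replicate 3 and without WT replicate 2, and 3 without KO replicate 1 and without WT replicate 1, while 8 or 9 genes were lower in these settings. Fast-fibre markers were lower in KO at the same time: 7 of 12 fell and 0 rose, and their summed level was 147577 to 175122 CPM in KO and 221296 to 285698 CPM in WT. Of 8 general muscle fibre markers 3 fell. Of 10 slow-fibre markers 1 rose (Casq2) and 0 fell. Their summed level was 156 to 1578 CPM in KO and 91.7 to 505 CPM in WT, with overlap. The part of the lower fast-fibre and muscle fibre markers in these counts, and in those of Pfkfb3 and Tbc1d1, was not tested.

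Among 18 relatives of the 10 genes, 7 were tested and Gpd2 alone passed, so 14.3% passed beside 6.26% of all tested genes. The further transporters Slc2a3, Slc2a5, Slc2a8, Slc2a10 and Slc2a12 were all too low to be tested. Of 24 genes of insulin signalling, 13 were tested: Pik3r1 fell, Akt2 and Grb10 rose and 10 did not pass. The share that passed was 23.1%, beside the same 6.26%. Pik3r1, the regulatory subunit of the lipid kinase that insulin receptors recruit, had 25.7, 36.2 and 24.6 CPM in KO and 48.2, 64.1 and 73.9 CPM in WT (log2 fold change -1.11, SE 0.21, edgeR adjusted p = 0.00544). Akt2, the kinase that phosphorylates TBC1D4, had 99.6 ± 24.0 CPM in KO and 62.3 ± 4.66 CPM in WT (0.68, edgeR adjusted p = 0.0411). Grb10, an adaptor that restrains the insulin receptor, had 42.4 ± 6.82 CPM in KO and 25.3 ± 1.31 CPM in WT (0.74, edgeR adjusted p = 0.0428). The call for Akt2 was lost in 8 of 16 alternatives and that for Grb10 in 7, up to an edgeR adjusted p of 0.175 and 0.171. Each of WT replicates 1 to 3 and KO replicate 3 decided both calls, KO replicate 2 that for Akt2 and KO replicate 1 that for Grb10. The insulin receptor gene Insr had 2, 4 and 4 counts in KO libraries and 8, 9 and 5 in WT libraries, and was not tested.

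Of 33 genes of GLUT4 vesicle traffic, 25 were tested, with Rab13 higher, Pak1 lower and 23 not passing, so 8% passed, near the 6.26% of all tested genes. Rab13, a small GTPase known as a TBC1D4 target in rat muscle cells, had 57.5, 48.7 and 45.3 CPM in KO and 14.6, 11.6 and 15.1 CPM in WT (3.66-fold higher, edgeR adjusted p = 8.07e-05, log2 fold change 1.87). Pak1, a kinase downstream of RAC1, had 9.79, 12.5 and 12.6 CPM in KO and 61.3, 55.9 and 49.98 CPM in WT (4.76-fold lower, edgeR adjusted p = 1.20e-05, log2 fold change -2.25). Neither overlapped between genotypes, and both calls held in all 16 alternatives. Rab10, another Rab of GLUT4 vesicles, had 69.1 CPM in KO and 105 CPM in WT on average and did not pass (edgeR adjusted p = 0.126), and Rac1 had 25.7 CPM in KO and 26.0 CPM in WT.

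Of 18 genes of glucose sensing and transcription, 15 were tested: Txnip rose, Mef2c, Zbtb20 and Foxo1 fell and 11 did not pass. The share that passed was 26.7%, beside 6.26% of all tested genes. TXNIP is an arrestin-like protein, induced by glucose, that promotes removal of glucose transporters from the surface. Txnip had 113, 118 and 139 CPM in KO and 59.8, 38.2 and 58.9 CPM in WT (2.36-fold higher, edgeR adjusted p = 0.000612, log2 fold change 1.24). Its relative Arrdc4 had 4, 4 and 9 counts in KO libraries and 2, 1 and 1 in WT libraries, too low to be tested. Zbtb20, a transcriptional repressor, had 49.95 ± 3.53 CPM in KO and 90.6 ± 9.70 CPM in WT (edgeR adjusted p = 0.00368). Mef2c, a factor known to bind the Slc2a4 promoter, was 2.22-fold lower in KO. Its relatives Mef2a and Mef2d leaned higher and did not pass (log2 fold changes 0.34 and 0.39, edgeR adjusted p = 0.628 and 0.244). Foxo1 fell by 1.20 on the log2 scale (edgeR adjusted p = 0.0337). That call was lost in 8 alternatives (adjusted p up to 0.149), among them those without KO replicate 1, 2 or 3 or WT replicate 2 or 3.

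Of 20 genes of the routes that use hexose phosphates, 17 were tested: Gpi1 and Gys1 rose, Ugp2, Gyg and Got1 fell and 12 did not pass. The share that passed was 29.4%, beside 6.26% of all tested genes. Ugp2 and Gyg had 251 ± 21.1 and 61.6 ± 6.93 CPM in KO, and 523 ± 33.0 and 126 ± 11.5 CPM in WT. Got1, an aminotransferase of the malate-aspartate shuttle, the other carrier of cytosolic reducing power, had 191 ± 45.7 CPM in KO and 348 ± 32.1 CPM in WT (log2 fold change -0.86, edgeR adjusted p = 0.00568). Its partner Mdh1 did not pass (622 ± 54.2 CPM in KO, 668 ± 77.5 CPM in WT, edgeR adjusted p = 0.675). Gpi1, which makes fructose phosphate from glucose phosphate, and the glycogen synthase gene Gys1 rose by 0.53 and 0.50 on the log2 scale (edgeR adjusted p = 0.0204 and 0.0321). Gpi1 lost its call in 5 alternatives and Gys1 in 6, up to an edgeR adjusted p of 0.158 and 0.195, both on leaving out KO replicate 1, KO replicate 3, WT replicate 1 or WT replicate 2, and Gys1 also on leaving out KO replicate 2.

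**Figure D5:**
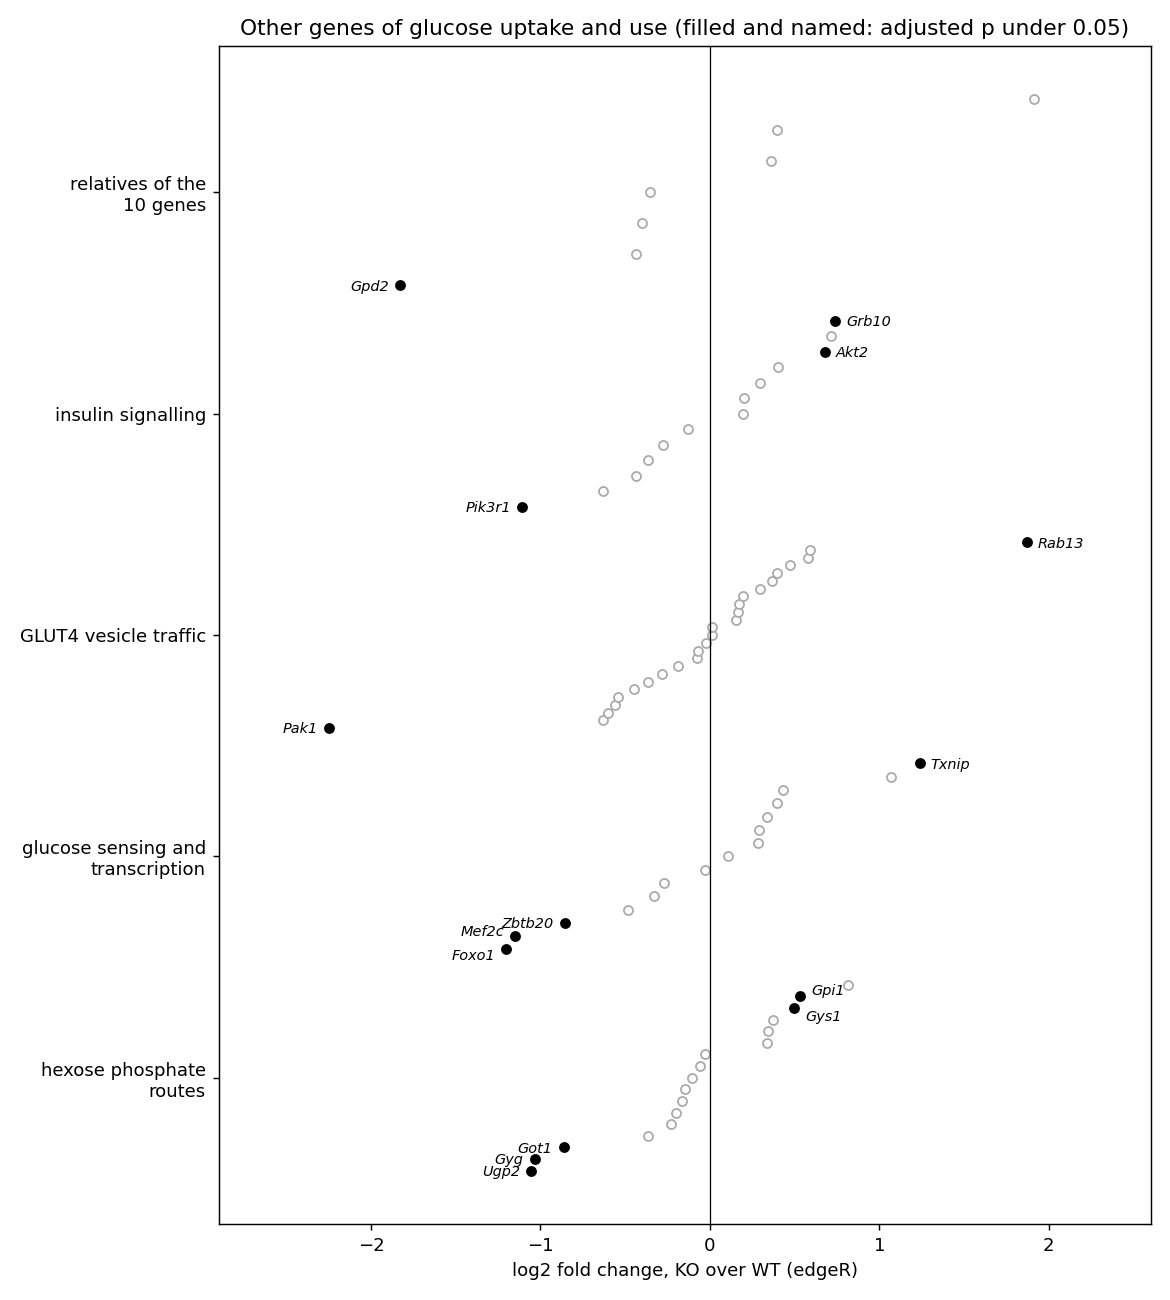
Log2 fold change of KO over WT (x axis) of the 77 tested genes in 5 lists of glucose uptake and use, filled and named where the adjusted p was under 0.05. Pak1 (-2.25) and Gpd2 (-1.83) lie farthest to the left and Rab13 (1.87) is the rightmost named gene.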

How the data were processed

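Total RNA of quadriceps femoris was made into cDNA by template switching, amplified and read on a nanopore instrument, per the labels' protocols. The build was GRCm38, and minimap2 and DESeq2 1.6.3 were among the tools, per the submitters' processing notes. The sources used here name no read counter or annotation release and do not say whether strand was used. The authors deposited whole-number read counts per Ensembl gene, not normalized, and CPM scaled to a fixed total per library. The deposited CPM were not used. Symbols were taken by identifier from a reference table that matched 22022 of 22036 identifiers, and positions from GENCODE M21.

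The test was edgeR 4.0.16 (R 4.3.3) on 6680 genes kept by filterByExpr (minimum count 10, minimum total 15), with TMM scaling, the robust quasi-likelihood fit, and Benjamini-Hochberg adjustment at 0.05. SE is the size of the log2 fold change divided by the square root of F. Centred log2 CPM used a prior count of 2. Replicates are numbered in accession order. The steps were tested on simulated data. The exact binomial intervals cover counting error only and treat each read as independent, which cannot be checked without molecular identifiers. The intervals of the log2 fold changes also cover the spread among libraries.

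Alternatives were DESeq2 size factors, upper-quartile scaling, library totals, library sizes without the 20 most abundant genes, no filter, 5 CPM in 3 libraries, DESeq2 1.42.0, limma-voom 3.58.1, robust=FALSE, a slow-fibre score as covariate and each library left out. The genes and lists were chosen with earlier results of these data known. Named genes were the 10 genes, list genes that passed, and the 3 nearest profiles to Slc2a4 and to each of the 10 that passed. Others were named after their values were seen: Pfkm and the relatives or partners given for comparison. One listed gene is counted in its list but not reported here.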

Additional observations from a re-analysis of the deposited data

How the results depend on the processing

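Over the 8 tested genes and 16 alternatives, 120 of 128 values kept their direction and their side of the threshold, 0 lost a call, 2 gained one and 6 turned their sign. With library totals, 4 of the 8 genes passed in place of 2, Slc2a4 and Gpd1 (0.56 and 0.63 on the log2 scale) being the additional ones. No alternative took the call from Pfkfb3 or Tbc1d1. Hk2 turned to -0.010 with limma-voom and, with 1 library left out, lay between -0.17 and 0.37, below 0 without KO replicate 2, KO replicate 3 or WT replicate 1. Fbp2 turned to 0.040 with library totals and, with 1 library left out, lay between -0.64 and 0.060, above 0 without KO replicate 2. The cause was not tested. The difference in the Hk2 share of hexokinase reads (KO minus WT, -0.51 percentage points) was between -1.14 and 0.32 with 1 library left out, turning without KO replicate 1. Over all genes 418 passed, 801 with library totals and 706 with no filter (344 higher and 362 lower), and 237 to 363 with 1 library left out, the fewest without WT replicate 2 (237) and WT replicate 1 (273). No paired analysis was possible because the titles of the KO and WT libraries share only 1 number, and nothing in the labels says that it marks a pair. Genes near 5 CPM, such as Slc2a1 and Tbc1d4, rest on 2 to 14 counts in a library, so only large changes in them could be seen.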
